A study of Mus musculus with 32 samples.

Results

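Histone genes were followed across the eosinophil lineage of IL-5 transgenic mice with 58 of the 24159 array probes that both BeadChip versions share. Symbols and gene lists were set with earlier results of these data known. The probes were then taken by annotated symbol, not by their signal. Of these, 52 belong to the replication-dependent histone clusters, with 6 for H1, 14 for H2A, 12 for H2B, 4 for H3 and 16 for H4, and 6 belong to histone variants. The annotation resolved 52 probes to 40 genes, 36 of them cluster genes and 4 of them variants, of 15187 genes named on the arrays, and placed 31 genes on chromosome 13, 5 on chromosome 11, 3 on chromosome 3 and 1 on chromosome 6. The other 6 probes are shared between near-identical copies and are written with both names, such as H2ac6/H2ac7. Of the 8 variant genes sought, H2ax, H2az1, H3f3a and H1f0 had no shared probe with their name and were not analysed here.

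The study profiled sorted cells of BALB/c mice aged 7 to 12 weeks on 32 Illumina MouseWG-6 arrays. The IL5T mice carry an IL-5 transgene under the CD2 promoter, so that T cells make IL-5 constitutively, and the wild-type (WT) mice carry none. From IL5T mice the arrays cover bone marrow common myeloid progenitors (CMP, 5 arrays), granulocyte macrophage progenitors (GMP, 5), eosinophil progenitors (EoP, 3), Siglec-F medium eosinophils of the marrow (EoM BM, 3), Siglec-F high eosinophils of the marrow (EoH BM, 4) and Siglec-F high eosinophils of the peripheral blood (EoH PB, 3). From WT mice they cover CMP, GMP and EoP with 3 arrays each. The progenitors were sorted as lineage-negative, Sca-1-negative, c-Kit-positive and CD34-positive cells, separated by the Fc receptor level and, for EoP, by the IL-5 receptor. The antibody label of the EoH BM arrays reads Siglec-F medium, against their titles and cell type labels, and the titles were followed. One CMP array of IL5T mice (replicate 2) has a column name that contains gmp, and its mean correlation over 24159 probes was 0.991 with the other CMP arrays and 0.974 with the GMP arrays. The study describes each array replicate as independent and as a pool of mice, so the p-values measure the spread between pools.

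Of 5 eosinophil marker genes, 4 were detected on every EoH BM and every EoH PB array, and 3 on every EoM BM array. Il5ra was detected on 1 EoM BM array, 1 EoH BM array and no EoH PB array. Epx and Prg2 were also detected on every CMP and GMP array of IL5T mice, so they do not set the eosinophils apart. All 7 neutrophil markers were detected on every EoM BM and EoH BM array too. Ccr3 and Siglecf, which mark mature eosinophils, were detected on no EoP array. All 10 eosinophil arrays were made in 1 run of their own (run 1), on version 1.1 chips, while the progenitors were spread over 2 other runs, so EoM BM and EoP differ in run and chip version as well as in cell type. The version term is estimated from the CMP and GMP arrays of IL5T mice, which lie on both versions, but run and cell type cannot be told apart. Those on version 1.1 are all of run 2 and those on version 2.0 all of run 3, so the term cannot separate version from run. The Y-linked gene Eif2s3y was detected on 0 of 10 eosinophil arrays and on all 22 progenitor arrays, which again cannot be told apart from the cell type. Values below are log2 intensities after background correction and quantile normalization, with the effect of chip version removed, and a difference of 1 is a doubling. Bulk arrays cannot separate fewer cells of a type from less RNA per cell.

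Histones package DNA into nucleosomes, whose core holds H2A, H2B, H3 and H4, with H1 bound to the linker. The replication-dependent genes sit in clusters, are transcribed mainly in S phase when new DNA must be packed, and give mRNAs that end in a stem-loop in place of a poly(A) tail, although some are also polyadenylated in cells that leave the cycle. Variants such as H3.3, H2A.Z and macroH2A come from ordinary polyadenylated genes and can be deposited outside S phase. The amplification kits named in the methods and labels prime from poly(A) tails, so the probes of cluster genes read transcripts with such a tail or internal priming, and a probe of one cluster gene may also take up RNA of its near copies.

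Promoter windows of the genes on which the results turn, from 250 bases before to 50 after the start site, were taken from RefSeq with its GRCm38.p6 coordinates. They are shown because cluster and variant genes that moved differently can be read side by side, with capitals marking the octamer ATTTGCAT, the CCAAT box CCAAT and the TATA box TATAAA or their reverse complements. H2ac12 (chr13:22035594-22035893, minus strand) is the H2A gene with the largest fall in blood.
H2ac12: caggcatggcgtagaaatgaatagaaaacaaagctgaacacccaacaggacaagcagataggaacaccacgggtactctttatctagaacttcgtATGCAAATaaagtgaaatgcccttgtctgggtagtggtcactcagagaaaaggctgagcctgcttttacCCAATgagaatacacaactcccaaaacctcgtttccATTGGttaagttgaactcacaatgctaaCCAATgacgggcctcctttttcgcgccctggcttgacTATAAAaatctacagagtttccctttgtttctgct
H4c12 (chr13:21750504-21750803, minus strand) is the H4 gene with the largest fall in blood.
H4c12: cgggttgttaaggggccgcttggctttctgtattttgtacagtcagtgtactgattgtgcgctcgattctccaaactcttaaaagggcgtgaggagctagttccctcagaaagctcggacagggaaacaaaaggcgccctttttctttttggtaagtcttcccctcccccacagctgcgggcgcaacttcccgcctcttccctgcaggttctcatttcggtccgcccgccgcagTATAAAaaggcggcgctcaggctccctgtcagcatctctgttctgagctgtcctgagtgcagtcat
H1f2 (chr13:23738557-23738856, plus strand) is the linker histone gene whose signal stayed high.
H1f2: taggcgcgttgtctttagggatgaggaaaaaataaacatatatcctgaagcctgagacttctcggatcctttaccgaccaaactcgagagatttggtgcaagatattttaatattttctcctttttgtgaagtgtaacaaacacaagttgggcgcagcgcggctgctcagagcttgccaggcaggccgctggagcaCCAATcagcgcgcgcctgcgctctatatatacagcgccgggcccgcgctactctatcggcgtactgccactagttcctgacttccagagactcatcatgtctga
H3f3b (chr11:116024455-116024754, minus strand) encodes the replication-independent variant H3.3.
H3f3b: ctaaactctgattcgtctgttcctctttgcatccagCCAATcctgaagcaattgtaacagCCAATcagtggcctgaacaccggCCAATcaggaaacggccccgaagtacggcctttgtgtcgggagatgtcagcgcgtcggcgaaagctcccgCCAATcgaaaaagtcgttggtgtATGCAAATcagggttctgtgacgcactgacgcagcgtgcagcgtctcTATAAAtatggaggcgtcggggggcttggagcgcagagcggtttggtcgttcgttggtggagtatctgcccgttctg
The H2ac12 window shares 277 bases with that of its divergent neighbour H2bc12, so both genes of the pair start from 1 stretch of DNA. H2ac8 and H2bc8 form a second such pair with 279 shared bases. A window was available for 31 of 36 cluster genes and all 4 variant genes. Searched on both strands, with no overlap counted between motifs, the octamer was in 9 of 31 cluster windows (29%), 6 of 9 H2A and 3 of 7 H2B windows but none of the 8 H4 or 6 H1 windows, against 1.75% of 27025 windows of all genes. The CCAAT box was in 25 of 31 cluster windows (80.6%, all genes 37.9%), and in 2 of 8 for H4. TATAAA was in 20 of 31 (64.5%, all genes 14.2%). These matches are a description of letters in the windows and were not tested as binding sites.

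The cluster probes were bright in the marrow. Of the 52, 29 were detected on all 32 arrays (detection p under 0.05), 16 on some and 7 on none. The median of the 14 H2A probes on an array was 13.17 to 14.09 in every marrow group, above the 99th percentile of all probes (13.1). This leaves the brighter H2A probes little room for a rise. Not all were bright: H2ac1 was detected on 6 and H2aw on 4 of the 16 version 2.0 arrays. Detected cluster probes numbered 33 to 34 on the EoH PB arrays, against 38 to 42 on EoH BM, 42 on EoM BM and 41 to 43 on the progenitor arrays.

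**Figure D1:**
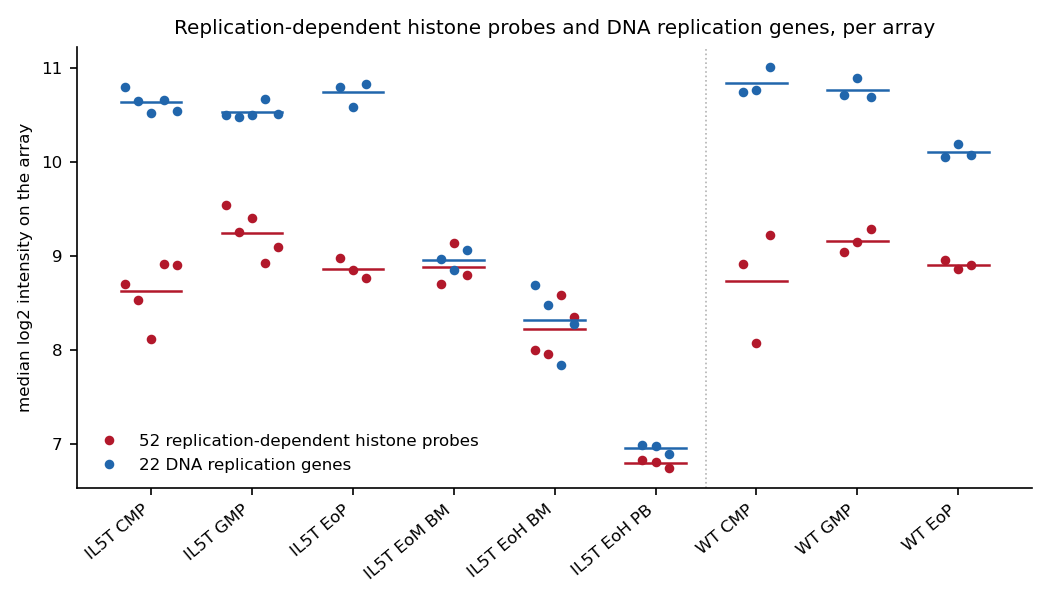
Median log2 intensity on each array (y axis) of 52 replication-dependent histone probes (red) and 22 DNA replication genes (blue) in the 9 groups (x axis), with lines at group means. The replication genes were near 10.5 in IL5T progenitors and lower in all eosinophil groups, while the histone probes were lowest in EoH PB, at 6.75 to 6.83.

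Of the 5 steps along the IL5T lineage, the one between blood and marrow Siglec-F high eosinophils called the most histone probes, 37 of 58, and it lies within 1 run and 1 chip version. In EoH PB relative to EoH BM, 36 of 52 cluster probes fell and none rose (limma, adjusted p under 0.05), with a median difference of -1.19, against a median of 0 over all probes. Of all 24159 probes, 5.83% were called in this comparison, 3.19% as rises and 2.64% as falls, while 69.2% of the cluster probes fell. The array medians of the cluster probes were 6.83, 6.81 and 6.75 in EoH PB, against 8, 7.96, 8.59 and 8.35 in EoH BM. By family, 12 of 14 H2A, 13 of 16 H4, 8 of 12 H2B, 2 of 4 H3 and 1 of 6 H1 probes fell, with median differences of -1.66, -1.37, -1.13, -0.73 and -0.12. Of the 16 probes that did not pass the test, 10 were detected on no array of either group and 6 on every array of both. Groups did not overlap for 38 cluster probes, all lower in blood, against 11.7% of all probes.

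**Figure D2:**
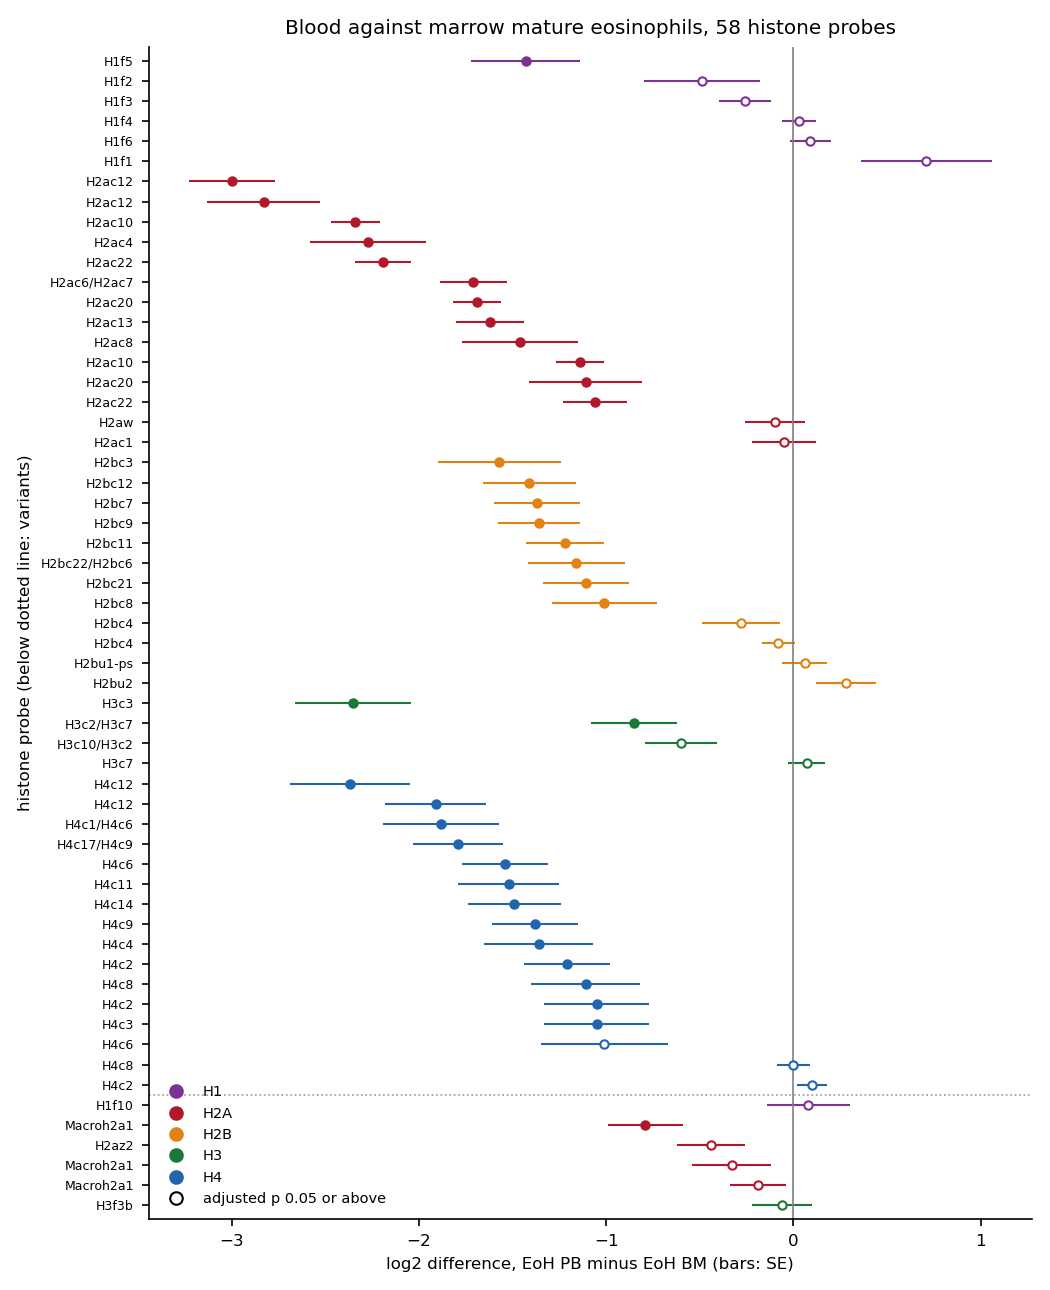
Log2 difference of EoH PB minus EoH BM (x axis) with its standard error (bars) for each of 58 histone probes (y axis), grouped by family, filled where the adjusted p was under 0.05. The 36 filled cluster probes all lie left of 0, from -3 to -0.85, and 1 of the 6 variant probes is filled.

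H2ac12 (older name Hist1h2ah), a canonical H2A gene, had 10.96, 10.01 and 10.49 in EoH PB, against 14.04, 13.83, 12.86 and 13.24 in EoH BM. Every blood array was below every marrow array, and the difference was -3 (SE 0.23, adjusted p 8.74e-10). Its second probe gave -2.83 (SE 0.3). H2bc12, the H2B gene on the other side of the same promoter, had 8.72, 8.75 and 8.62 in EoH PB, against 10.36, 10.09, 10.01 and 10 in EoH BM, a difference of -1.41 (SE 0.25, adjusted p 0.000369). The other divergent pair also fell together, H2ac8 by 1.46 (SE 0.31) and H2bc8 by 1.01 (SE 0.28) on the log2 scale, both with at least 1 blood array below detection.

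H2ac20, a further canonical H2A gene, had 12.65, 12.38 and 12.44 in EoH PB, against 14.41, 14.15, 13.89 and 14.29 in EoH BM. The groups did not overlap, with a difference of -1.69 (SE 0.13, adjusted p 8.58e-10), although its blood level stayed far above the detection limit. H2ac4 was detected on no blood array, at 5.26, 5.29 and 4.98, against 7.82, 7.61, 7.19 and 7.16 in EoH BM. Because blood was below background it was at least 3.34-fold lower there, the bound being set by the dimmest detected probe of each array (fitted difference adjusted p 1.43e-05). H3c3 was likewise below detection on all blood arrays, with 4.5, 4.5 and 4.41, against 7.56, 7.21, 5.63 and 6.87 in EoH BM, and was at least 2.33-fold lower (adjusted p 6.75e-06). One marrow array, replicate 3, was below detection for H3c3.

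The many H4 gene copies encode the same core histone. H4c12 had 6.01, 6.36 and 6.71 in EoH PB, against 8.12, 8.02, 8.5 and 8.47 in EoH BM, a difference of -1.91 (SE 0.27, adjusted p 1.81e-05) with no overlap. The other H4 probes that fell did so by 1.05 to 2.37 on the log2 scale, the largest of these being the second H4c12 probe. The H4c6 probe ILMN_2525565 was the 1 H4 probe detected on all arrays of both groups that did not pass, with a difference of -1.01 (SE 0.34, adjusted p 0.093).

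Genes known to give polyadenylated transcripts in non-dividing cells behaved less uniformly. H1f2 (older name Hist1h1c), a linker histone found in resting cells, had 12.17, 12.07 and 11.62 in EoH PB, against 12.39, 12.67, 12.34 and 12.38 in EoH BM, a difference of -0.49 (SE 0.31, adjusted p 0.553) that did not pass. H2bc4 had 8.64, 9.4 and 9.16 in EoH PB, against 9.14, 9.25, 9.56 and 9.45 in EoH BM, with overlapping groups and a difference of -0.28 (SE 0.21, adjusted p 0.674). H2bc21 fell by 1.11 (SE 0.23, adjusted p 0.00289) and H2bc12 as given above, so 2 of the 4 measured genes of this list fell. H1f1 had a positive difference of 0.71 (SE 0.35, adjusted p 0.371), which did not pass either. Of the other H1 genes, H1f5 fell to below detection in blood (at least 1.62-fold lower), and H1f3, H1f4 and H1f6 were detected in neither group.

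**Figure D3:**
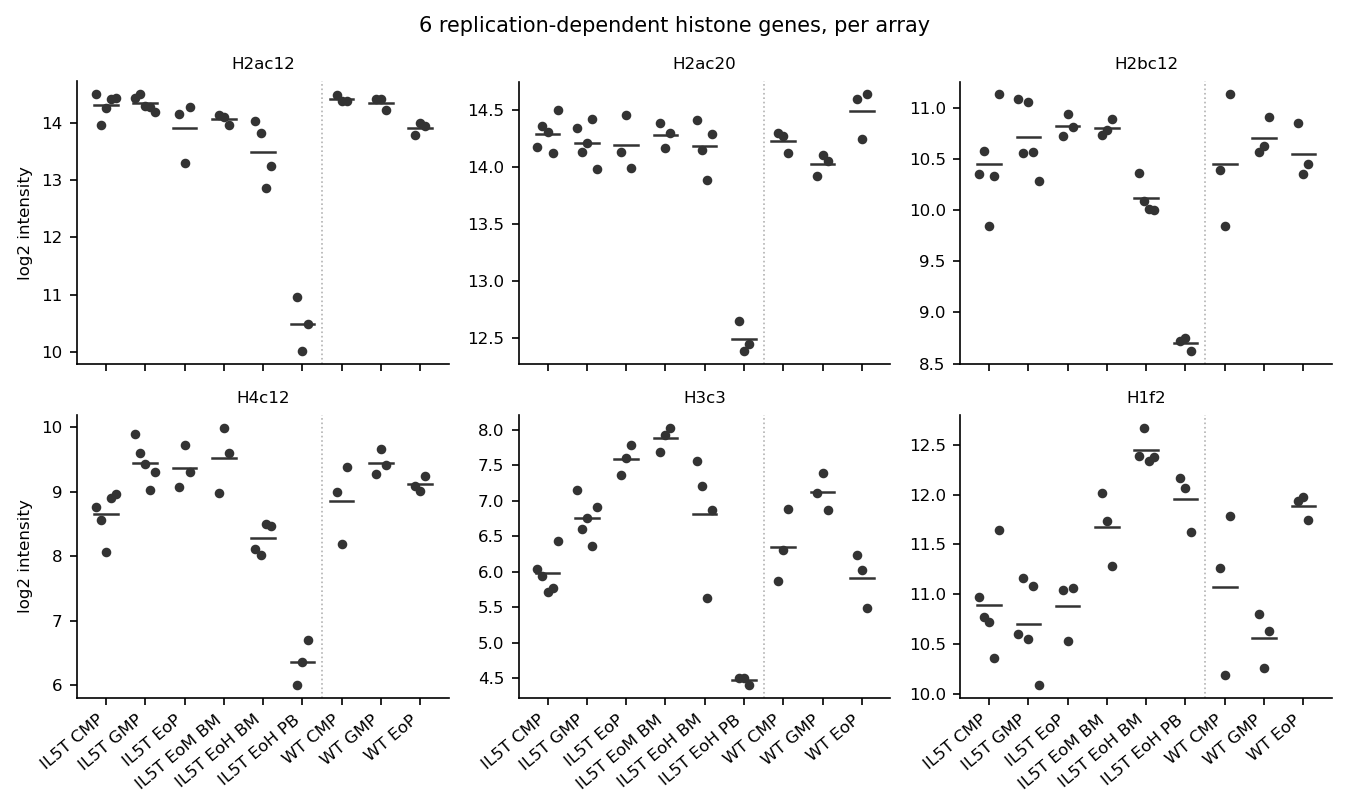
Log2 intensity on each array (y axis) of H2ac12, H2ac20, H2bc12, H4c12, H3c3 and H1f2 in the 9 groups (x axis), with lines at group means. The EoH PB arrays lie below all other groups for the first 5 genes, whereas H1f2 was at 11.62 to 12.17 in EoH PB.

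Among the variants, 1 of 6 probes fell in EoH PB relative to EoH BM, a probe of Macroh2a1, and none rose. This is 16.7% as falls, against 2.64% of all probes, and it rests on 1 probe. H3f3b, which encodes H3.3, had 12.16, 12.12 and 11.71 in EoH PB, against 12.04, 12.58, 11.72 and 11.9 in EoH BM, with a difference of -0.06 (SE 0.16, adjusted p 0.977). H2az2, the H2A.Z.2 gene, had 9.89, 9.24 and 9.84 in EoH PB, against 10.16, 10.13, 9.79 and 10.32 in EoH BM, and its difference of -0.44 (SE 0.18, adjusted p 0.204) did not pass.

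Genes that act with histones in S phase were lower in blood as well. In EoH PB relative to EoH BM, 13 of 22 measured DNA replication genes fell and none rose, with Tyms, a thymidylate synthase, at least 5.51-fold lower and detected on no EoH PB array, and Mcm6, a subunit of the replicative helicase, at -1.85 (SE 0.25) on the log2 scale. Of 20 histone chaperones, 7 fell, among them the replication-coupled assembly factors Chaf1a (-1.6), Chaf1b (-1.41) and Asf1b (-1.76). The replication and chaperone lists share Chaf1b and Mcm2, so these counts are not separate. Over all probes, 2.64% fell. Of 10 genes for histone mRNA processing, none passed and 1 had an unadjusted p under 0.05. But 5 of the 10 (Casp8ap2, Cpsf3, Lsm11, Slbp and Zfp473) were detected on no array of either group, so their values are background. Markers of other cells moved in the same comparison: the summed erythroid markers (4 genes, log2 of the sum) were 8.76 to 12.79 in EoH PB and 14.22 to 15.01 in EoH BM, and those of neutrophils and their precursors (7 genes) 13.56 to 14.99 in EoH PB and 14.99 to 16.31 in EoH BM. Elane, a granule protease of granulocyte precursors, differed by -5.32 (SE 0.62). Lymphoid and monocyte markers ran mostly the other way. The summed T cell markers (4 genes) were 10.25 to 10.73 in EoH PB and 7.96 to 8.23 in EoH BM, with 2 of 4 up, Cd2 by 4.08 and Cd3e by 2.69. Those of B cells (3 genes) were 12.16 to 12.8 in EoH PB and 10.37 to 12.53 in EoH BM, with Cd79a (1.94) and Cd79b (1.49) up and Vpreb3, a gene of B cell precursors, at least 19.2-fold lower and undetected in EoH PB. Those of monocytes (5 genes) were 11.07 to 11.26 in EoH PB and 9.33 to 10.12 in EoH BM, with 2 of 5 up. All 4 mast cell and basophil genes measured were below detection on every EoH PB array, but 3 of them were so on every EoH BM array too. None of the 4 passed. Kit, the stem cell factor receptor of progenitors, was at least 4.46-fold lower in EoH PB. The part of these cells in the histone difference was not tested.

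Against the earlier Siglec-F medium cells the blood cells differed more. In EoH PB relative to EoM BM, 38 of 52 cluster probes fell and none rose (14.9% of all probes called, 7.49% as rises and 7.45% as falls), with a median of -1.77. This comparison shares the blood arrays with the one above. H2ac12 differed by -3.58 (SE 0.25, adjusted p 6.01e-11), and H4c12 by -3.17 (SE 0.29, adjusted p 6.13e-09). H3c3 and H2ac4, both below detection in blood, were at least 4.86-fold and 6.75-fold lower there. H1f2 again did not pass, with 0.28 (SE 0.33, adjusted p 0.781). The 1 variant probe called was that of H2az2, which was lower without overlap (-1, SE 0.19, adjusted p 0.000439).

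Within the marrow, 14 of 52 cluster probes fell and none rose in EoH BM relative to EoM BM (8.44% of all probes called, 3.69% as rises and 4.75% as falls), with a median of -0.48 against 0 over all probes. H4 took most of them, 7 of 16, followed by H2B with 4 of 12, while 1 of 14 H2A probes fell. H4c12 had 8.12, 8.02, 8.5 and 8.47 in EoH BM, against 8.98, 9.99 and 9.6 in EoM BM, a difference of -1.25 (SE 0.27, adjusted p 0.00303). H4c3 had 7.01, 7.25, 7.86 and 7 in EoH BM, against 8.19, 8.81 and 8.52 in EoM BM, a difference of -1.23 (SE 0.28, adjusted p 0.00593). Neither gene overlapped between the groups. H4c4 (-1.2, SE 0.29) and H2bc3 (-1.13, SE 0.33) also fell, although H2bc3 overlapped between groups. The H4c4 call was lost without EoM BM replicate 3 (adjusted p 0.075) and with run 1 alone (0.0586), and the H2bc3 call without any one of EoH BM replicates 1, 3 and 4 or EoM BM replicates 2 and 3 (0.0648 to 0.246). The other H4c12 probe did not pass (-0.72, adjusted p 0.205). H1f2 ran the other way at 0.77 (SE 0.31, adjusted p 0.141), below the threshold. Of 22 DNA replication genes 5 fell. Among markers of other cells, 2 of 5 monocyte genes were up, 1 of 4 T cell genes and 2 of 3 progenitor genes were down, and their part was not tested. The count of histone probes called was 6 without EoM BM replicate 2 and 4 without EoM BM replicate 3, against 15 in all, and 8 when only run 1 was fitted.

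Cluster histones did not follow the DNA replication genes at the step out of the progenitors. In EoM BM relative to EoP, 3 of 52 cluster probes rose and 4 fell, while 28.9% of all probes were called, 13.8% as rises and 15.1% as falls, and the median cluster difference was 0.09. DNA replication genes fell in 17 of 22 cases with a median of -1.85, among them Rfc4, a clamp loader subunit, and Tipin, at least 6.08-fold and 6.74-fold lower and detected on no EoM BM array, and Cdc6 (-3.18, SE 0.32). Histone chaperones fell in 11 of 20 cases, led by Hirip3 (-2.26), Set (-2.18) and Nasp (-2.1). The array medians of the cluster probes were 8.7, 9.14 and 8.8 in EoM BM, against 8.98, 8.85 and 8.77 in EoP, so the groups overlapped. Scaled to a common array median in place of quantile normalization, 1 cluster probe rose and 9 fell, with a median of -0.33 where all probes had 0.07. Markers of other cells moved widely at this step. Of 7 neutrophil genes 5 were up and 1 down (median 6.26), and their sum was 15.89 to 16.51 in EoM BM and 14.22 to 14.45 in EoP. Of 4 erythroid genes 2 were up and 2 down, with Hba-a1 at 8.48 (SE 1.87). Cd3g, Vpreb3 and Cd79a, lymphoid genes detected on no EoP array, were at least 28-fold, 24.9-fold and 6.73-fold higher in EoM BM. The other T cell genes measured, Cd2, Cd3e and Cd5, were detected on no EoM BM array. Cd79b, the remaining B cell gene, did not pass (0.29, limma adjusted p 0.719). Among 5 monocyte genes, 3 were up and 1 down. All 4 mast cell and basophil genes were down, their sum being 7.2 to 7.66 in EoM BM and 12.61 to 13.34 in EoP. Their part in the histone values was not tested. 

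The members that moved at this step were few. H2ac8 had 7.92, 8.26 and 7.73 in EoM BM, against 9.98, 8.61 and 9.21 in EoP, and H2bc8 had 7.33, 7.69 and 7.5 in EoM BM, against 9.32, 8.38 and 8.5 in EoP. Both genes of this divergent pair were lower without overlap, by 1.3 and 1.23 on the log2 scale (adjusted p 0.022 and 0.015), but neither passed without EoP replicate 1 (adjusted p 0.112 and 0.0779). H2bc4 fell by 0.85 (SE 0.28, adjusted p 0.0243), a call lost without EoM BM replicate 2 or 3 or EoP replicate 1 or 3 (adjusted p 0.0537 to 0.08). H4c3 was higher by 1.26 (SE 0.39, adjusted p 0.0142), and only by 0.39 under common-median scaling (adjusted p 0.435). H2bu2 was at least 1.3-fold higher (adjusted p 0.000611), but it was detected on all 16 version 1.1 arrays and none of the 16 version 2.0 arrays, and its sign turned under common-median scaling (-0.07).

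Among the progenitors, H4 probes were higher in GMP than in CMP of IL5T mice. There, 7 of 52 cluster probes rose, all of them H4, and 1 fell, H2bc4 (10.7% of all probes called, 4.49% as rises and 6.19% as falls). H4c3 had 8.56, 7.93, 7.79, 7.56 and 7.92 in GMP, against 7.13, 6.97, 6.79, 7.25 and 7.38 in CMP, a difference of 0.85 (SE 0.24, adjusted p 0.0166) with no overlap, and did not pass without CMP replicate 3 (0.0527) or GMP replicate 1 (0.0753). H4c14 (0.81), H4c2 (0.79) and H4c12 (0.79) were next, and H4c2 overlapped between groups. The rise rested on run 2: fitted alone, run 2 (3 arrays a group) gave 8 of 16 H4 probes up with a median of 1.05, and run 3 (2 arrays a group) none with a median of 0.19, as against 7 and 0.76 in the joint fit. In WT mice, all on run 3, none of the 16 H4 probes passed in GMP relative to CMP, 14 were positive and the median was 0.47, with 9.15% of all probes called. Only 3 histone probes rose without IL5T CMP replicate 3, without IL5T GMP replicate 1 or under common-median scaling. The fall of H2bc4 (-0.59, SE 0.17, adjusted p 0.0235) did not pass without CMP replicate 2 or 5 or GMP replicate 2 or 5.

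**Figure D4:**
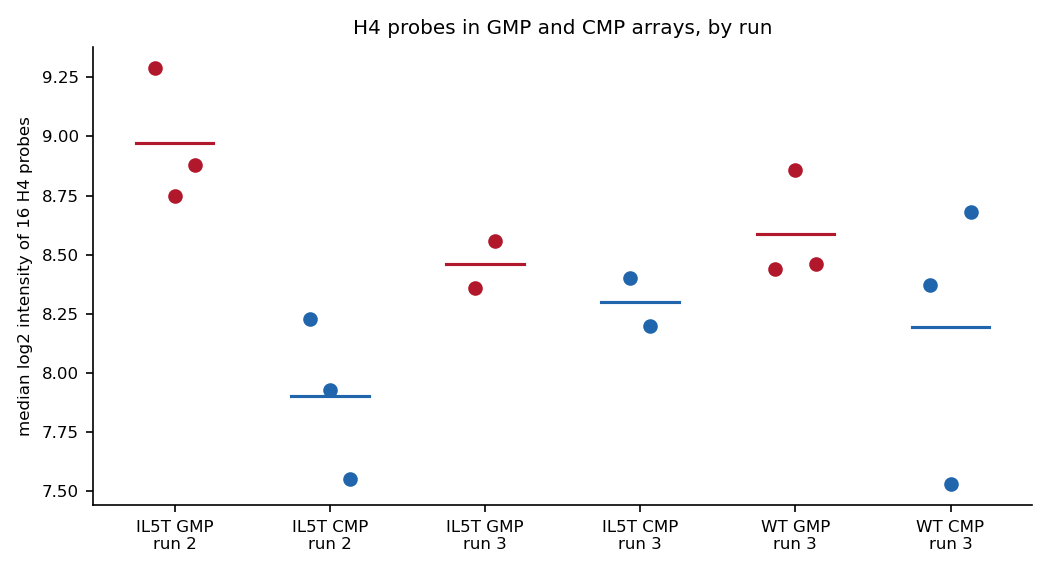
Median log2 intensity of 16 H4 probes on each array (y axis) for GMP (red) and CMP (blue) by genotype and run (x axis), with lines at group means. GMP lay above CMP without overlap in run 2 of the IL5T mice, at 8.75 to 9.29 against 7.55 to 8.23, but not in run 3.

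At the EoP step few cluster probes passed the test. No cluster probe was called in EoP relative to GMP of IL5T mice by limma (9.31% of all probes called, 4.77% as rises and 4.54% as falls), and 4 had an unadjusted p under 0.05. In WT mice 2 cluster probes rose and 1 fell, with 15 at an unadjusted p under 0.05 (9.22% of all probes called, 4.36% as rises and 4.86% as falls). H1f2 had 11.94, 11.98 and 11.74 in WT EoP, against 10.8, 10.26 and 10.63 in WT GMP, a difference of 1.32 (SE 0.33, adjusted p 0.0086) with no overlap. H2ac20 differed by 0.47 (SE 0.14, adjusted p 0.0317) near the top of the scale, a call lost without WT EoP replicate 1 or 3 or WT GMP replicate 1 or 3, with run 3 alone and under common-median scaling (adjusted p 0.073 to 0.45), and H3c3 by -1.2 (SE 0.33, adjusted p 0.0185). Under common-median scaling no histone probe rose and 14 fell in WT, H1f2 then being at 0.8 (adjusted p 0.106). H1f2 also missed the threshold when run 3 was fitted alone (adjusted p 0.0583) or without WT GMP replicate 2 (0.0523), and H3c3 without WT EoP replicate 3 or any one WT GMP array among replicates 1 and 2 (0.0507 to 0.122).

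At the same step 5 of 6 variant probes fell in IL5T EoP relative to GMP, those of Macroh2a1, H1f10 and H2az2. In WT EoP 3 of 6 fell, all of Macroh2a1, while H1f10 (-0.03), H2az2 (-0.17) and H3f3b (0.13) did not pass. Macroh2a1, which encodes macroH2A, a variant with a large extra domain, has 3 probes, and all of them fell in EoP relative to GMP in both genotypes. The probe ILMN_1247199 had 7.81, 7.04 and 7.42 in IL5T EoP, against 10.54, 10.36, 10.63, 10.59 and 10.35 in IL5T GMP, a difference of -3.07 (SE 0.22, adjusted p 1.86e-10). In WT it had 8, 7.97 and 8.1 in EoP, against 10.01, 9.87 and 10.16 in GMP, a difference of -1.99 (SE 0.21, adjusted p 3.01e-07). The groups were far apart in both genotypes. The brighter Macroh2a1 probes differed by -0.87 and -1.28 in IL5T mice and by -0.92 and -0.97 in WT mice. The IL5T call of the brightest, ILMN_1212989 (-0.87), was lost without EoP replicate 1 (adjusted p 0.0603) and under common-median scaling (0.0568). Between GMP and CMP, only ILMN_1247199 passed, at -1.17 in IL5T and -0.96 in WT mice.

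In EoM BM relative to EoP, 1 of 6 variant probes rose and 3 fell, and the Macroh2a1 probes diverged. ILMN_1247199 had 8.54, 8.49 and 8.13 in EoM BM, against 7.81, 7.04 and 7.42 in EoP (0.96, SE 0.27, adjusted p 0.0077), while ILMN_1242842 differed by -0.68 (SE 0.21, adjusted p 0.0145). ILMN_1247199 then had 9.22, 9.29, 10.27 and 9.48 in EoH BM, higher than EoM BM by 1.18 (SE 0.2, adjusted p 0.000279), and 8.98, 8.62 and 8.72 in EoH PB, lower than EoH BM by 0.79 (SE 0.2, adjusted p 0.015). The other probes passed in neither of the last 2 comparisons. Which transcripts of the gene each probe reads was not examined.

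H1f10 (older name H1fx), an H1 variant, fell along the lineage. It had 8.51, 8.04, 8.54, 8.07 and 8.18 in IL5T GMP, against 8.7, 9.32, 8.9, 8.75 and 9.69 in IL5T CMP, a difference of -0.8 (SE 0.18, adjusted p 0.00298), and the groups did not overlap. H1f10 did not pass there when run 2 (-0.61, adjusted p 0.192) or run 3 (-1.09, adjusted p 0.0945) was fitted alone. In WT mice it had 7.78, 7.85 and 7.96 in GMP, against 9.44, 10.38 and 9.74 in CMP, a difference of -1.99 (SE 0.23, adjusted p 9.05e-07). In IL5T EoP it had 7.4, 6.52 and 7.36, lower than in GMP by 1.18 (SE 0.24, adjusted p 0.00109, and 0.064 when run 3 was fitted alone), whereas in WT the EoP and GMP arrays overlapped (-0.03, SE 0.23, adjusted p 0.982). No eosinophil array detected it, and it was at least 2.9-fold lower in EoM BM than in EoP (adjusted p 9.24e-08).

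**Figure D5:**
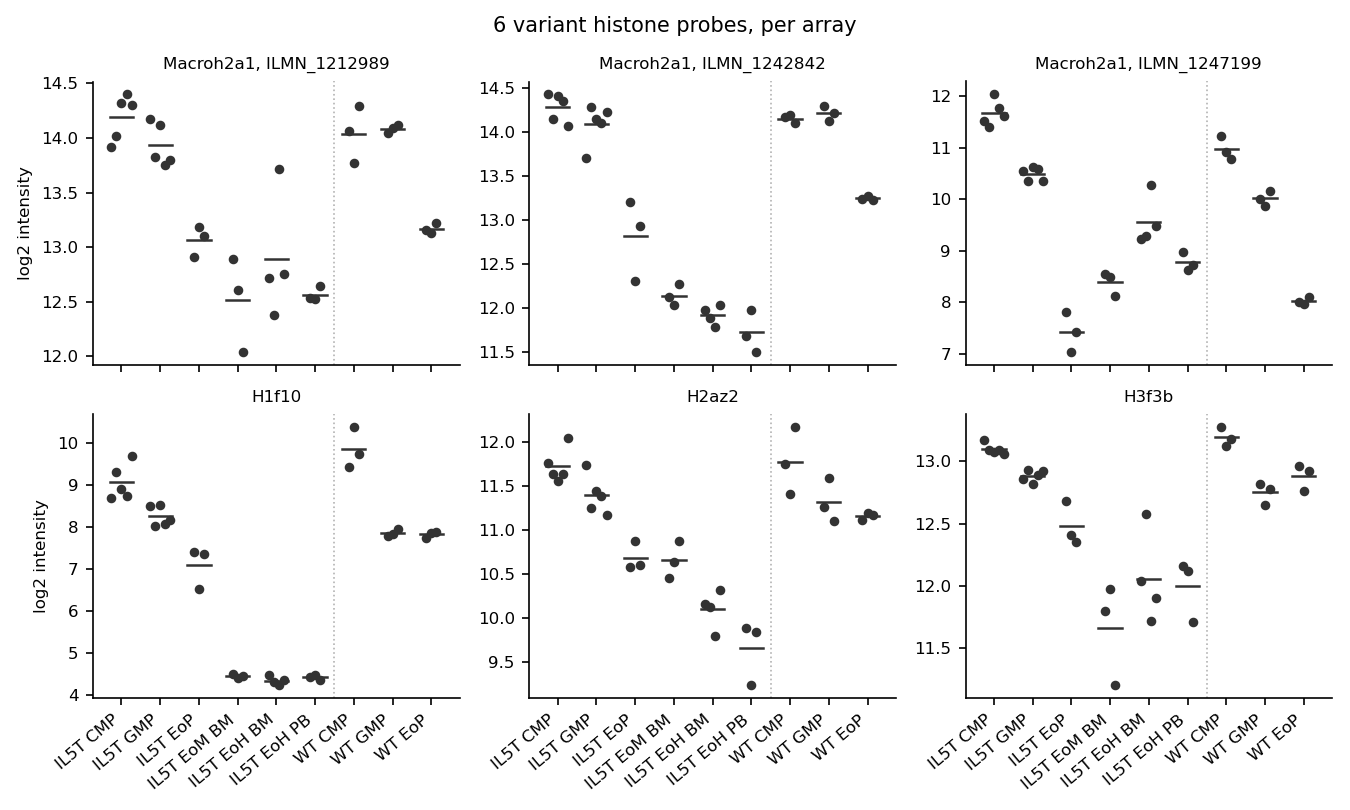
Log2 intensity on each array (y axis) of the 6 variant histone probes, 3 of Macroh2a1 and 1 each of H1f10, H2az2 and H3f3b, in the 9 groups (x axis), with lines at group means. H1f10 is at 4.25 to 4.51 in all eosinophil arrays, below detection, and the Macroh2a1 probe ILMN_1247199 is lowest in IL5T EoP.

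H3f3b stayed bright throughout. It had 11.8, 11.98 and 11.21 in EoM BM, against 12.68, 12.41 and 12.35 in EoP, a difference of -0.82 (SE 0.22, adjusted p 0.00424) with no overlap. The version term removed from this probe, which cannot be told apart from run, was 1.05 (version 2.0 minus 1.1), larger than that difference. In the joint fit H3f3b passed at no other step along the lineage. With run 3 fitted alone, H3f3b also passed in IL5T EoP relative to GMP (-0.43, adjusted p 0.0236) and in WT GMP relative to CMP (-0.44, adjusted p 0.00934). H2az2 fell in IL5T EoP relative to GMP, with 10.58, 10.88 and 10.6 in EoP, against 11.74, 11.25, 11.44, 11.39 and 11.17 in GMP (-0.71, SE 0.2, adjusted p 0.0192). Leaving out EoP replicate 1, EoP replicate 3 or GMP replicate 4 ended this call, with adjusted p 0.0697, 0.0665 and 0.0583. The H2az2 call was also lost with run 3 fitted alone (-0.59, adjusted p 0.115) and under common-median scaling (0.0892).

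The effect of the transgene was tested within each progenitor. In IL5T relative to WT mice, no histone probe was called by limma in CMP (0.691% of all probes called) or in GMP (0.0745%), with 2 of 58 at an unadjusted p under 0.05 in each. In EoP, 1 cluster probe rose and 4 fell (7.3% of all probes called, 3.75% as rises and 3.55% as falls), and no variant passed, so that 8.62% of the 58 histone probes were called, a share near that of all probes. H3c3 (older name Hist1h3c) had 7.36, 7.61 and 7.79 in IL5T EoP, against 6.24, 6.03 and 5.49 in WT EoP, a difference of 1.67 (SE 0.33, adjusted p 0.00177). The groups did not overlap, and 1 WT array was below detection. H2ac8 had 9.98, 8.61 and 9.21 in IL5T EoP, against 11.1, 10.59 and 10.45 in WT EoP, a difference of -1.44 (SE 0.34, adjusted p 0.00722), which did not pass without IL5T EoP replicate 2 (0.0664) or WT EoP replicate 1 (0.0549). H2bc4 had 9.98, 9.52 and 9.87 in IL5T EoP, against 10.93, 10.84 and 10.64 in WT EoP, a difference of -1.02 (SE 0.22, adjusted p 0.00435). The H2ac6/H2ac7 probe (-0.63, adjusted p 0.0412) was the fourth call, and the fifth was an H2bc4 probe detected on no array, whose values are background. Of the DNA replication genes, 4 of 22 rose in IL5T EoP and none fell. The count of 5 calls became 9 without IL5T EoP replicate 1, and 3 without IL5T EoP replicate 2, WT EoP replicate 1 or WT EoP replicate 3.

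The IL5T effect on H3c3 differed between EoP and GMP, by 2.03 (SE 0.47, adjusted p 0.014), the only histone probe called in that test (3.26% of all probes called). In GMP the difference ran the other way and did not pass. H3c3 had 7.15, 6.6, 6.76, 6.36 and 6.91 in IL5T GMP, against 7.11, 7.39 and 6.87 in WT GMP. No histone probe was called for the difference of the effects in GMP and CMP (0.0952% of all probes called), with 1 at an unadjusted p under 0.05.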

How the data were processed

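RNA of sorted cells was amplified by the authors, with an Ambion kit (TotalPrep per the methods, MessageAmp per the labels), and hybridised to Illumina MouseWG-6 version 1.1 (16 arrays) or 2.0 (16 arrays) BeadChips. The authors deposited scanner intensity values with a detection p-value per probe, and log2 values that they had corrected by normexp and then quantile normalized. From those files, the deposited intensities were corrected again with limma's normexp on detection p-values (offset 16) per chip version, quantile normalized over the 24159 shared probes and set to log2; these values differed from the deposited log2 values by at most 0.163.

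Differences came from limma (3.58.1, R 4.3.3) with group means and a chip version term over all 32 arrays and all shared probes, with Benjamini-Hochberg adjusted p under 0.05. Detection meant a detection p under 0.05. Arrays give no read depth, so precision rests on the number of arrays. Members and gene lists were chosen with earlier results of these data known. Probes were named from platform annotation updated through RefSeq (GRCm38.p6): 21157 probes have 1 gene, 8 several, 2855 none, and for 139 the tables disagree. Each gene is named by its brightest probe: every variant, up to 4 called, detected cluster genes with the largest rise and fall per comparison, the polyadenylated genes, and up to 3 called genes per companion list. Outside this rule, H2ac8, H2bc8, H3c3, H4c6 and the H1 genes other than H1f2 in the blood comparison, second probes, the H2ac6/H2ac7 probe and the marker genes of other cells were named after their values were seen. On simulated data of the blood comparison over 24159 probes, 86 of 100 probes changed by 1 and 100 of 100 changed by 2 on the log2 scale were recovered. Replicate numbers did not pair arrays: same-numbered arrays correlated at -0.59 to 0.38 in their deviations, and not every pair exceeded 0.1 in any comparison. Alternatives were the deposited values, no background correction, offset 50, common-median scaling, a detection filter, no version term, single runs, a replicate block, a stricter threshold, other probes, and leaving out each replicate. Figures used Python 3.11.15 and matplotlib 3.10.9.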

Additional observations from a re-analysis of the deposited data

Results flagged for a closer look

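H3c3 was singled out because the IL5T effect differed between EoP and GMP, by 2.03 on the log2 scale (SE 0.47, limma adjusted p 0.014). Among 63 sets of 1 named gene in 1 group of 4 or 5 arrays, 3 had an array far from the others by Dixon's criterion, where chance gives about 1 in 20. H4c2 was 5.88 in EoH BM replicate 3 and 6.57 to 6.69 on the other EoH BM arrays. H1f2 was 12.67 in EoH BM replicate 2 and 12.34 to 12.39 on the others. H3f3b was 13.17 in IL5T CMP replicate 1 and 13.06 to 13.09 on the others.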

How the results depend on the processing

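The fall of cluster probes in EoH PB relative to EoH BM kept its direction for all 36 called probes over the fit reported, the deposited values, no background correction, offset 50, common-median scaling and leaving out each array in turn (12 fits), and 26 stayed called in all of them. The count of histone probes called there was 30 to 37 of 58 leaving out each array, against 37.

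The smaller counts moved more. With the deposited values, IL5T EoP against WT EoP had 8 calls. Without background correction, the test of IL5T effects in EoP and GMP had 2. Common-median scaling gave 6 calls for IL5T GMP against CMP (3 up, 3 down), 3 for IL5T EoP against GMP, 1 for WT GMP against CMP and 14 for WT EoP against GMP. Keeping only probes detected on 3 or more arrays gave 8 for IL5T EoP against WT EoP and 4 for the test of IL5T effects in EoP and GMP. Without the version term, EoM BM against EoP had 17 and the test of effects 2. Adjusted p under 0.01 gave 4 for IL5T GMP against CMP, 3 for IL5T EoP against GMP, 5 for EoM BM against EoP, 8 for EoH BM against EoM BM, 3 for IL5T EoP against WT EoP and 0 for the test of effects in EoP and GMP. Single runs gave 2 (run 3) for IL5T GMP against CMP, 8 for EoH BM against EoM BM and 3 for the test of effects. The cause of these shifts was not tested.

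The replicate block, for numbers that do not pair the arrays, gave 1 call for IL5T EoP against GMP, 3 for EoM BM against EoP and 0 for the test of effects in EoP and GMP (H3c3 at 2.41, adjusted p 0.184), with the other 10 counts within 1.5 times.

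Leaving out each replicate, the counts ran from 6 to 12 for IL5T GMP against CMP, 3 to 5 for IL5T EoP against GMP, 6 to 10 for EoM BM against EoP, 4 to 18 for EoH BM against EoM BM, 3 to 9 for IL5T EoP against WT EoP, 0 to 1 for IL5T CMP against WT CMP, 1 to 4 for the test of effects in EoP and GMP and 0 to 1 for that in GMP and CMP. The brightest probe of a gene decided some calls. Signs turned with another probe for Macroh2a1 in EoM BM against EoP (0.96) and in WT GMP against CMP (-0.96), H2bc4 in IL5T GMP against CMP (0.03) and EoM BM against EoP (0.1), H4c2 in IL5T GMP against CMP (-0.08) and H2ac20 in WT EoP against GMP (-0.24). The H2bc4 and H4c2 probes behind these turns were detected on no array, so their values are background. In EoM BM against EoP the signs also turned for H2bu2 (-0.07) under common-median scaling and H2az2 (0.66) without the version term. Run could not be added as a random block, because groups and chip version already fix it, and no run holds both EoM BM and EoP.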

Other observations

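Of 11 other histone variant genes outside the symbols sought, 3 passed the test as lower in EoM BM than in EoP. In that comparison 28.9% of all probes were called, 15.1% as falls. H2aj differed by -0.82 (SE 0.16) and Cenpa, the centromeric H3, by -0.74 (SE 0.18), while the third, Macroh2a2, was detected on no array of either group and has no usable difference. Cenpa was also lower in EoH PB than in EoH BM by 0.79 on the log2 scale (SE 0.13, limma adjusted p 0.000251) and higher in IL5T than in WT EoP by 0.49 (SE 0.14, adjusted p 0.0368). Of 10 genes for histone mRNA processing, 1 rose and 1 fell in EoM BM relative to EoP (28.9% of all probes called). Casp8ap2, Cpsf3, Slbp and Zfp473 were detected on no array of either group. Lsm10, a subunit of the U7 particle, was higher in EoM BM by 0.7 (SE 0.17), and Cstf2 lower by 0.77 (SE 0.2).

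Probes of 1 gene differed widely in level. The H2bc4 probe ILMN_2677231 was detected on no array while ILMN_1242399 was detected on all 32.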
